A study of Mus musculus with 18 samples.

Results

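The interferon response and MHC class I genes described here are 9 mouse genes in the spinal cord of a model of spinal muscular atrophy (SMA). They are Ifi27, Ifit1, Ifit2, Ifit3, Irf7, Bst2, B2m, H2-D1 and H2-K1, and were taken by gene symbol from the deposited expression table. The symbols matched 10 of the 58570 gene loci, because Ifit1 was listed at 2 loci with the same span. The samples were whole spinal cords of the SMNΔ7 line, homozygotes (SMA) and heterozygotes (control) taken at postnatal day 2, 6 or 10 (P2, P6 or P10). Each of these 6 groups stood for 3 libraries of total RNA. SMA pups of this line are known to lack functional mouse Smn1 and to carry human SMN transgenes, and the heterozygotes keep 1 working mouse allele. Both genotypes belong to the same line, and the labels give no further strain background, sex or litter.

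Interferons are secreted proteins that cells release after sensing foreign or misplaced nucleic acid. They bind receptors whose Jak kinases phosphorylate Stat transcription factors, and these switch on interferon-stimulated genes through promoter elements named the interferon-stimulated response element (ISRE) and the gamma-activated site (GAS). MHC class I molecules, a heavy chain such as H2-D1 or H2-K1 with the light chain beta-2-microglobulin, show peptides from inside the cell to T cells and are raised by interferons. In the developing mouse nervous system they have also been linked to the refinement of synapses, and microglia and endothelium are known sites of interferon response.

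The genotype check came first, since 1 group went against its label and another stood apart. Smn1 was at FPKM 2.70, 4.46 and 3.54 in control at P2, P6 and P10, at 0.021 in SMA at P2, listed at 0 in SMA at P6, and at 2.82 in the group labelled SMA at P10. FPKM is the number of fragments per kilobase of transcript, scaled to depth. Estimated Smn1 fragments were 20.2 in that group, beside 25.9 in control at P10, 0.202 in SMA at P2 and 0 in SMA at P6. The group value thus went against its label, and no direction drawn from this group can be read as an effect of losing Smn1. Its Smn1 interval was wide (FPKM 0 to 6.08) and overlapped that of SMA at P2 (0 to 1.92). The myelin gene Mbp stood at FPKM 150, 1012 and 4281 in control from P2 to P10, and at 1840, 1130 and 2294 in SMA. The group labelled SMA at P2 thus exceeded the SMA group at P6 in Mbp, and Mag, another myelin gene, had the same order (FPKM 145 and 99.6, against 11.1 in control at P2). Intervals of the group labelled SMA at P2 were wide, FPKM 0 to 6286 for Mbp and 0 to 308 for Mag. Whether the libraries of the groups labelled SMA at P2 and P10 all have the age and genotype of their label was not tested, and each ratio at P2 or P10 and each age change in SMA below carries that doubt. Spinal neuron markers were at similar summed levels in the 6 groups (FPKM 395 to 432, 12 of 12 loci reaching FPKM 1). Summed estimated fragments were 6881671 to 7386338 per group. The tables hold 1 value per group with the libraries already combined, so every value below is the authors' group value with the bounds of their model interval, and no standard deviation between cords can be given.

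The genes lie on 6 chromosomes of build GRCm38 (GENCODE M21). Ifit2 (chr19:34550694-34576419), Ifit3 (chr19:34583531-34588731) and Ifit1 (chr19:34640871-34650009) lie in 1 cluster on the plus strand. H2-K1 (chr17:33996017-34000347, minus strand) and H2-D1 (chr17:35262730-35267499, plus strand) lie in the MHC region. B2m is at chr2:122147686-122153083 on the plus strand, Ifi27 at chr12:103434211-103440239 on the plus strand, Irf7 at chr7:141262706-141266481 on the minus strand and Bst2 at chr8:71534255-71537456 on the minus strand. All 9 are annotated as protein-coding, and each value covers the whole locus. The deposited span of B2m also covered Patl2 and Trim69, and that of Irf7 also covered Phrf1, so fragments of these neighbours cannot be told apart from the span alone. The 2 Ifit1 loci are called locus 1 and locus 2, and their strand is not given in the table.

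RefSeq promoter windows on GRCm38.p6 were found for 8 of the 9 genes (none for Ifi27) and were searched on both strands for an ISRE core, which is GAAA followed by any pair of bases and another GAAA. Of 32851 windows of 300 bases, 3.44% held it. It was present in 4 of the 8 genes, B2m, Bst2, Ifit1 and Ifit3. The matches in Bst2 overlapped each other. It was not found in the windows of Ifit2, Irf7, H2-D1 or H2-K1, which says only that these letters are absent there. A GAS core (TTCNNNGAA, in 8.30% of windows) occurred once in Bst2, where it overlapped the first ISRE core by 3 bases, and once in the farther upstream of the 2 Ifit2 windows. The 250 bases before the RefSeq start of the 4 genes with an ISRE core are printed 5′ to 3′ on the strand of the gene, with the core in capitals, to show that B2m, an abundant gene here, shares it with 3 genes that were barely detected. Capitals in Ifit1 and Ifit3 read TTTC first because their cores lie on the opposite strand. The stretches are chr2:122147437-122147686 (plus strand) for B2m, chr8:71537473-71537722 (minus strand) for Bst2, chr19:34640639-34640888 (plus strand) for Ifit1 and chr19:34583279-34583528 (plus strand) for Ifit3.
B2m: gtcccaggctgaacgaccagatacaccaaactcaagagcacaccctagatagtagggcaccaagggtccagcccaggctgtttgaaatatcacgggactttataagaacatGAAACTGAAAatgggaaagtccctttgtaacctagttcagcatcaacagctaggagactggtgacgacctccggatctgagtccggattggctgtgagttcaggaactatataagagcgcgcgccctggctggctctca
Bst2: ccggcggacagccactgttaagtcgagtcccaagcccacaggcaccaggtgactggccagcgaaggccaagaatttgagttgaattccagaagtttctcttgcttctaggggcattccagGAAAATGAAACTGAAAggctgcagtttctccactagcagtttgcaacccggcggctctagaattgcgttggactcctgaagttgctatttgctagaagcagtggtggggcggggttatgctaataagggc
Ifit1: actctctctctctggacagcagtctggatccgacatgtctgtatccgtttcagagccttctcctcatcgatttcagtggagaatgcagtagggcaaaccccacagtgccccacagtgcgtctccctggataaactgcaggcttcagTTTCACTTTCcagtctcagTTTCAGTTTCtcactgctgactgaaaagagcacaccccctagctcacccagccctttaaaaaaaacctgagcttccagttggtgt
Ifit3: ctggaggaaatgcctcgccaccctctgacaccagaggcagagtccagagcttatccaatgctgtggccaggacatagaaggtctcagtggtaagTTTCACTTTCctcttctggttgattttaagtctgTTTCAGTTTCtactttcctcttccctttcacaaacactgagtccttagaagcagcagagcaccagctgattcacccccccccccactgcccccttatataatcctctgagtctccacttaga

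The heavy chain genes H2-D1 and H2-K1 shared an exact run of 47 bases in the 250 bases before their RefSeq starts, shown in capitals. The RefSeq start of H2-D1 lies inside the GENCODE span given above, so its stretch does too. Inside it lies GGGATTCCC, the core of the kappa B site of class I promoters, which 0.353% of all windows held and none of the other 6 genes with a window held. The stretches are chr17:35262844-35263093 (plus strand) for H2-D1 and chr17:34000348-34000597 (minus strand) for H2-K1.
H2-D1: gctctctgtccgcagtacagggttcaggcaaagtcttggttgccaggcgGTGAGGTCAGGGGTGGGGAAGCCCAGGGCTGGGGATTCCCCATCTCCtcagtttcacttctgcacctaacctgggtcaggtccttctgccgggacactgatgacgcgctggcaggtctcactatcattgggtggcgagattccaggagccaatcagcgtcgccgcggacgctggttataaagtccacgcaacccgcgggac
H2-K1: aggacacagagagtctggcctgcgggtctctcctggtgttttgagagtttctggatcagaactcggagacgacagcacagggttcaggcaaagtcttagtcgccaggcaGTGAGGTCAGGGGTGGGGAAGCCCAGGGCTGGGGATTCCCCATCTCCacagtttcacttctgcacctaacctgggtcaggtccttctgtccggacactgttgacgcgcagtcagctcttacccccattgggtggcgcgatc

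Levels differed more between the genes than between the groups, where the highest and lowest value of a locus were 1.32-fold to 4.17-fold apart. B2m and H2-D1 were the most abundant in each of the 6 groups, at a mean FPKM of 28.1 and 25.9. H2-K1 (4.91), Ifi27 (5.01) and Ifit2 (2.70) followed. Irf7 had a mean FPKM of 0.825, Bst2 0.578, Ifit1 0.201 at locus 1 and 0.428 at locus 2, and Ifit3 0.284. B2m, H2-D1 and H2-K1 together made up 82.7% to 88.6% of the summed FPKM of the 10 loci in a group. In all, 6 loci reached FPKM 1 in a group (Ifi27, Ifit2, Irf7, B2m, H2-D1 and H2-K1), and Irf7 did so in 1 group, control at P10. Neither Ifit1 locus, Ifit3 nor Bst2 reached it.

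In the order of levels, B2m and H2-D1 could not be separated, since their intervals overlapped in each group. The step from this pair down to the next gene had intervals that did not overlap in control at P2 and P6 and in the groups labelled SMA at P2 and P10. It overlapped in control at P10 and SMA at P6, where Ifi27 was the next gene with wide intervals. All further neighbours in the order overlapped in each group.

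**Figure D1:**
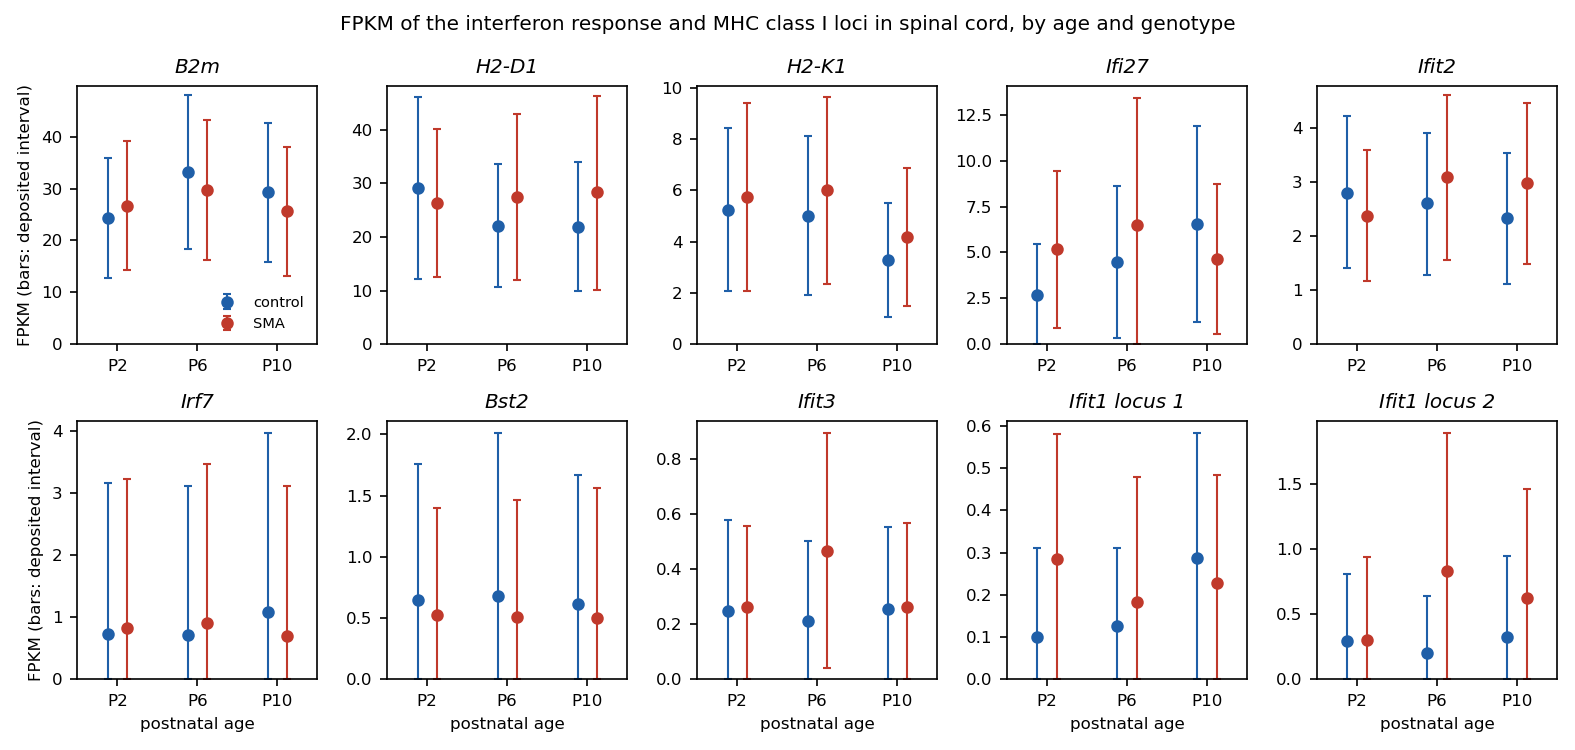
FPKM (vertical axis, a scale per panel from 0) of the 10 loci at each postnatal age in control (blue) and SMA (red); points are the authors' group values and bars the bounds of the deposited interval. The intervals of control and SMA overlap in every panel at every age, and B2m and H2-D1 are the highest panels at FPKM 21.9 to 33.2.

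B2m, the light chain of every classical class I molecule, was at FPKM 24.3, 33.2 and 29.3 in control at P2, P6 and P10, and at 26.7, 29.8 and 25.6 in the groups labelled SMA. The highest and lowest of the 6 values differed 1.36-fold and no group stood apart. About 131 to 180 estimated fragments per group lay behind these values. The log2 ratio of SMA to control was 0.13 ± 0.49 at P2, -0.16 ± 0.47 at P6 and -0.20 ± 0.49 at P10 (± standard error derived from the deposited interval). Its 95% interval ran from -1.16 to 0.77 at P10, so a 2-fold lower level in SMA lay inside it and a 2-fold higher level outside.

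H2-D1, the classical heavy chain with the greater level, was at FPKM 29.1, 22.1 and 21.9 in control at P2, P6 and P10. In the groups labelled SMA it was at 26.4, 27.4 and 28.3. Control at P2 was the highest group and control at P10 the lowest, 1.33-fold apart, on 326 to 417 estimated fragments. SMA against control gave -0.14 ± 0.58 at P2, 0.31 ± 0.56 at P6 and 0.37 ± 0.62 at P10 as log2 ratios. From estimated counts in place of FPKM, it was 0.11 at P6 and 0.17 at P10.

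H2-K1, the other classical heavy chain, was at FPKM 5.24, 5.01 and 3.28 in control at P2, P6 and P10. The groups labelled SMA had 5.75, 5.99 and 4.19, above control at each of the 3 ages, with overlapping intervals. Both genotypes had their lowest value at P10. On the log2 scale SMA differed from control by 0.13 ± 0.65 at P2, 0.26 ± 0.64 at P6 and 0.35 ± 0.69 at P10, on 38.7 to 65.1 estimated fragments.

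The FPKM of H2-D1 was 4.41 to 6.75 times that of H2-K1, and the ratio was greatest at P10 in both genotypes (6.69 in control and 6.75 in the group labelled SMA). B2m had 0.710 to 1.23 times the summed FPKM of both heavy chains. That ratio was above 1 in control at P6 and P10 and below 1 in the other groups, control at P2 included. The heavy chains resemble other genes in sequence. Of the 50-base words of the longest coding H2-D1 transcript in GENCODE M21, 14.3% also occur in transcripts of other genes, and of H2-K1 8.79%. Class I chains also differ between mouse strains, reads were aligned to 1 reference, and the labels give no H2 haplotype, so the ratio between heavy chains is uncertain.

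Ifi27 had the widest spread among the members that reached FPKM 1 in every group. It encodes a small interferon-induced membrane protein. Its FPKM was 2.70, 4.48 and 6.55 in control at P2, P6 and P10, and 5.17, 6.50 and 4.64 in the groups labelled SMA. Control had a higher value at each later age and SMA did not, so that SMA was the higher group at P2 and P6 and the lower at P10. Each value rested on few fragments, 13.2 to 28.5 per group, and the intervals overlapped throughout. The log2 ratio of SMA to control was 0.93 ± 0.96 at P2 (95% interval -0.95 to 2.82), 0.54 ± 1.04 at P6 and -0.50 ± 0.88 at P10. From estimated counts it was 0.23 at P6. The log2 ratio of P10 to P2 was 1.28 ± 0.95 in control and -0.15 ± 0.89 in the groups labelled SMA, and the difference of these changes was -1.43 ± 1.30 (z test, adjusted p = 1).

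Ifit2, an interferon-induced RNA-binding protein known in mice to limit virus spread in the brain, varied little at a low level. It was at FPKM 2.81, 2.61 and 2.33 in control at P2, P6 and P10, and 2.38, 3.09 and 2.98 in the groups labelled SMA. The extremes differed 1.32-fold on 82.6 to 106 estimated fragments. The log2 ratio of SMA to control was -0.24 ± 0.52 at P2, 0.24 ± 0.52 at P6 and 0.35 ± 0.53 at P10. Its intervals lay above those of Ifit1 and Ifit3 of the same cluster in each group, except that of Ifit1 locus 2 in SMA at P6, which overlapped.

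Irf7, the transcription factor that amplifies type I interferon production, was near the limit of what these tables resolve. It was at FPKM 0.735, 0.706 and 1.08 in control and 0.824, 0.912 and 0.701 in the groups labelled SMA, at P2, P6 and P10. Every lower bound was 0, and the log2 ratio at P10 had a standard error of 3.21.

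The remaining antiviral effectors were lower still. Ifit3, a partner of Ifit1 in binding viral RNA, was at FPKM 0.249, 0.210 and 0.253 in control and 0.261, 0.466 and 0.263 in the groups labelled SMA, on 4.11 to 8.49 fragments. SMA at P6 was the highest group, with an interval from 0.0398 to 0.893 that overlapped the others. Of its 50-base words 51.2% also occur in Ifit3b, so its fragments may be split between both genes. Bst2, the tetherin that holds budding virions at the cell surface, was at FPKM 0.649, 0.679 and 0.610 in control and 0.527, 0.506 and 0.50 in the groups labelled SMA. These values rest on 2.71 to 4.02 fragments, around the 3 fragments used here as a floor, and their lower bounds were 0. Ifit1, which binds RNA that lacks host cap methylation, was at FPKM 0.0992 to 0.286 at locus 1 and 0.199 to 0.832 at locus 2, on 1.5 to 7.60 fragments, with locus 2 highest in SMA at P6.

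No member passed the test between genotypes at any age. A locus was tested where it reached FPKM 1 in a compared group, was above 0 in each, and had an OK status from Cuffdiff, and it was called at an adjusted p under 0.05 (two-sided z test of log2 ratios, with Benjamini-Hochberg adjustment over all loci tested). At P2, 0 of 5 member loci tested were called, where 0.126% of all 19114 loci tested were called. At P6 it was 0 of 5 against 0.0458% of 19631 loci, and at P10 0 of 6, with Irf7 added, against 0.0397% of 20157 loci. With a background this low, 0 called members says little about them. Intervals of control and SMA overlapped for each member, and they did not overlap for 0.230%, 0.117% and 0.0794% of loci at P2, P6 and P10. No tested member had an unadjusted p under 0.05, against 142, 33 and 43 loci in all at the 3 ages, and the smallest member p was 0.332, for Ifi27 at P2. With no minimum FPKM, 10 of 10 member loci were tested and 0 were called. Ifi27 at P2, at 1.91-fold, and Irf7 at P10 were the tested members past 1.5-fold, as were 13.2% and 14.3% of all loci at these ages. Loci at P6 leaned higher in SMA, with a median log2 ratio of 0.12 over 6772 abundant protein-coding genes, and 60.1% of tested loci were higher before and 40.3% after centring on it. Relative to that shift, the log2 ratios at P6 were 0.42 for Ifi27, 0.12 for Ifit2, -0.28 for B2m, 0.19 for H2-D1 and 0.14 for H2-K1.

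**Figure D2:**
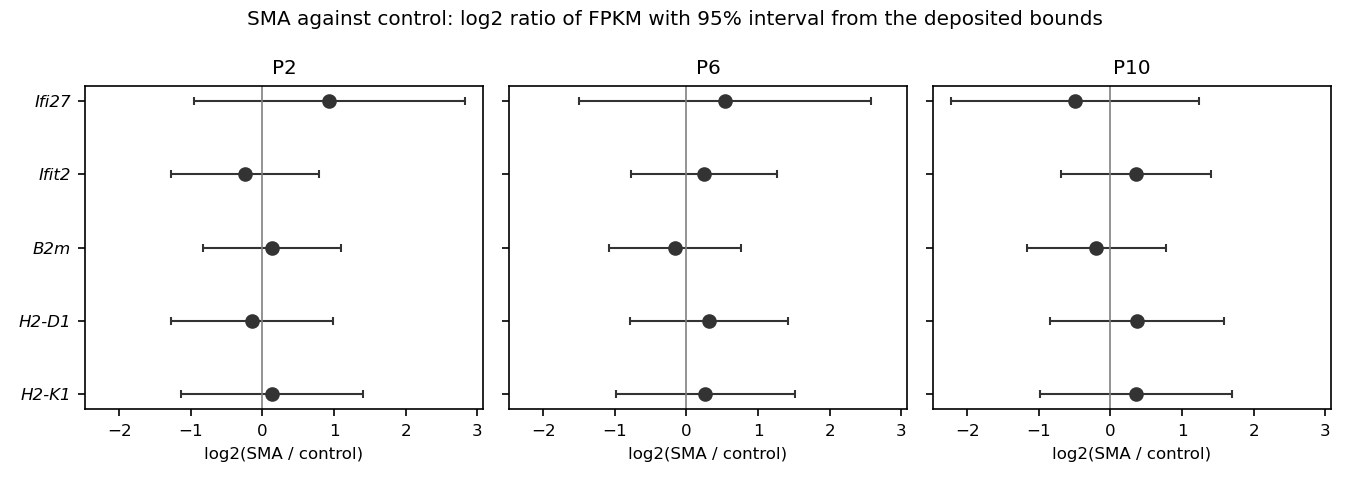
Log2 ratio of FPKM, SMA to control, at P2, P6 and P10 for the members tested at each of the 3 ages (Irf7, tested at P10 alone, is left out). Points are ratios, bars are 95% intervals from the deposited bounds, and the vertical line marks no difference, which every bar crosses.

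Across age, differences of the members pointed in both directions and none was called. In control, 0 of 6 members tested were called between P10 and P2, where 0.631% of 19956 loci were. The log2 ratio of P10 to P2 in control was -0.68 ± 0.67 for H2-K1, -0.41 ± 0.59 for H2-D1, 0.27 ± 0.49 for B2m and -0.27 ± 0.53 for Ifit2. In the groups labelled SMA, 0 of 5 were called against 0.0602% of 19938 loci, with -0.46 ± 0.66 for H2-K1 and 0.10 ± 0.61 for H2-D1. The difference between genotypes in the change from P2 to P10 was called for 0 of 6 members and for 0.0574% of 20916 loci. It was 0.50 ± 0.85 for H2-D1, 0.59 ± 0.75 for Ifit2, 0.22 ± 0.94 for H2-K1 and -0.33 ± 0.69 for B2m. These changes share the SMA groups at P2 and P10 that stood apart or went against their label.

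A second model let the 3 ages stand as replicates of each genotype's level (limma on log2(FPKM + 1), a scale that understates changes of low genes). It called 0 of 6 members, where 0.00455% of 21960 loci were called and 2.05% had an unadjusted p under 0.05. H2-K1 had the smallest p, with a difference of 0.20 ± 0.10 and the SMA value higher at 3 of 3 ages (limma, adjusted p = 0.999). H2-D1 had 0.17 ± 0.12, Ifi27 0.26 ± 0.23, Ifit2 0.09 ± 0.13, B2m -0.07 ± 0.10 and Irf7 -0.02 ± 0.16. In this model 60.7% of all 21960 loci had a higher value in SMA. With the groups centred on their median, the difference of H2-K1 was 0.15. Fits without the groups of an age leave 1 residual degree of freedom, so their standard errors are poorly determined. Without the P10 groups, whose SMA group had an Smn1 value near that of control, the difference was 0.59 ± 0.12 for Ifi27 (limma, adjusted p = 0.707) and 0.17 ± 0.10 for H2-K1. From the deposited intervals, the log2 ratios of Ifi27 were 0.93 ± 0.96 at P2 and 0.54 ± 1.04 at P6. Without the P2 groups, the limma difference was 0.02 ± 0.25 for Ifi27, 0.33 ± 0.10 for H2-D1 (limma, adjusted p = 1) and 0.25 ± 0.14 for H2-K1. For age, the same model called 0 of 6 members against 0.0137% of 21960 loci, and 15.4% of loci had an unadjusted p under 0.05. H2-K1 at P10 was -0.46 ± 0.12 relative to P2, lower in both genotypes (limma, adjusted p = 0.282), and Ifi27 was 0.45 ± 0.28 (limma, adjusted p = 0.456).

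Upstream of the members, transcripts of the listed interferon genes other than Ifnk were at or near 0, while the receptors and transducers were present. Of 10 interferon genes, 0 reached FPKM 1 and 7 were listed at 0 in each group, Ifnb1 among them. With 1 exception the rest stayed at or under 0.309 fragments in a group. The exception was Ifnk, interferon kappa, with 0.593, 1.35 and 5.82 fragments in control and 1.87, 0.974 and 3.2 in the groups labelled SMA. Ifnk had FPKM 0.898 in control at P10. Its mean FPKM of 0.349 lay above that of the members Ifit3 (0.284) and Ifit1 locus 1 (0.201). Ifna2, of the interferon alpha family, had 0.309 fragments in SMA at P6 and none elsewhere. At this depth a count of 0 allows up to 3 fragments in a group, for counting error alone. Among 17 loci of receptors and signal transducers, 16 reached FPKM 1, at a median of the mean FPKM of 6.84. Jak1, a kinase of the type I and type II receptors, had a mean FPKM of 27.8, and Ptpn11, a phosphatase of Jak-Stat signalling, 19.6. The locus of the receptor chain Ifnar1, joined with A930006K02Rik and named after its values were seen, was at FPKM 14.3, 12.3 and 12.9 in control and 13.2, 13.4 and 12.6 in the groups labelled SMA. None of these loci was called in any comparison, and their summed FPKM was 130 to 141 across the groups.

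**Figure D3:**
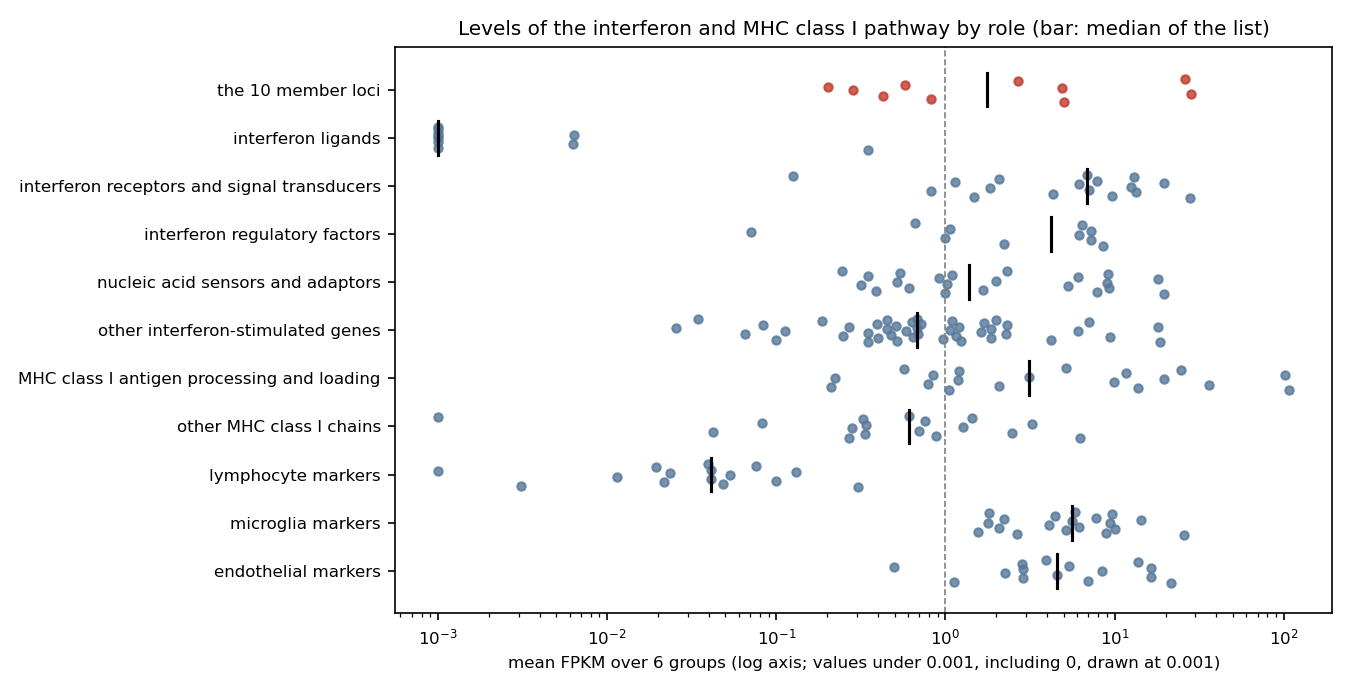
Mean FPKM over the 6 groups (log axis; values under 0.001 are drawn at 0.001) for the 10 member loci in red and for lists of pathway genes and cell type markers in blue; each point is a locus, the black bar is the median of its list and the dashed line is FPKM 1. The ligands other than Ifnk (0.349) lie at or near 0. Receptors and transducers have a median of 6.84, and other interferon-stimulated genes a median of 0.676, with 21 of 44 loci reaching FPKM 1.

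The list of interferon regulatory factors reached FPKM 1 at 8 of 10 loci. It also holds Irf2bp1 and Irf2bp2, which are corepressors of Irf2 and not regulatory factors of this family. Irf2bp1 led the list, followed by Irf3, which switches on interferon genes after nucleic acid sensing (mean FPKM 8.54 and 7.24). Tested loci of this list were higher in SMA at 6 of 8 at P2, 7 of 8 at P6 and 1 of 7 at P10. Their medians were 0.22, 0.32 and -0.07 (log2) beside -0.01, 0.07 and 0.04 for all loci tested. Both corepressors were among the loci higher at P2 and P6. Irf8, lower at P2 and higher at P6, had standard errors of 29.59 and 32.41 there, so its direction cannot be read. The list of nucleic acid sensors and adaptors reached FPKM 1 at 15 of 22 loci. It also holds nucleases and an editor (Samhd1, Trex1, the Rnaseh2 genes and Adar), and counts Ticam1 at more than 1 locus. Traf3, an adaptor of these sensors, was at FPKM 11.6, 16.6 and 30.8 in control and 18.7, 18.2 and 21.4 in the groups labelled SMA. Adar, which edits double-stranded RNA and is also interferon-induced, stayed at FPKM 16.8 to 19.3. In control, 13 of 15 tested loci of this list had higher values at P10 than at P2 (median log2 ratio 0.39, against 0.02 for all loci tested). None was called, and the count is not one of sensors alone. In the groups labelled SMA it was 6 of 15, with a median of -0.01.

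Other interferon-stimulated genes resembled the low members. Of 44 loci 21 reached FPKM 1, and the median of the mean FPKM was 0.676. The most abundant was the locus of Ifitm2, which restricts virus entry, joined with Ifitm5, at a mean FPKM of 18.6. Isg15, the ubiquitin-like protein that is among the first induced by interferon and is named after its values were seen, was at FPKM 0.516, 0.356 and 0.462 in control and 0.230, 0.350 and 0.167 in the groups labelled SMA. These values rest on 1.04 to 3.18 fragments, around the floor of 3, so no direction can be read from them. The list leaned in neither direction at P2 (8 of 17 loci higher in SMA, median log2 ratio 0.00) or P6 (11 of 21, median 0.00). At P10, 4 of 18 loci were higher (median -0.20, against 0.04 for all loci tested). In control, 14 of 19 had higher values at P10 than at P2 (median 0.28), and in the groups labelled SMA 7 of 18 did (median -0.02). No locus of the list was called in any comparison, and the summed FPKM was 82.0 to 104. Adar, Samhd1 and Ddx58 were tested here and in the list of nucleic acid sensors and adaptors, so the counts of both lists share loci.

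Genes listed for class I antigen processing and loading, with regulators such as Rfx5 and Ciita among them, differed widely in level. Of 19 loci 16 reached FPKM 1, and the summed FPKM was 326 to 369. The general chaperones Canx and Calr, calnexin and calreticulin of the endoplasmic reticulum, led with a mean FPKM of 108 and 102. More dedicated genes were mixed. Tap1 (2.08), Tap2 (1.18), Psmb8 (0.792) and Psmb9 (0.571) were low. Psmb10 had a mean FPKM of 19.5 and the locus of Tapbp, joined with Zbtb22, 11.7. Tested loci of the list higher in SMA were 9 of 14 at P2, 10 of 14 at P6 and 7 of 15 at P10. None was called. Of all loci tested, 49%, 60.1% and 55.6% were higher in SMA at these ages. Medians of the list were 0.07, 0.16 and -0.04 (log2) beside -0.01, 0.07 and 0.04 for all loci tested. Other class I chains reached FPKM 1 at 6 of 17 loci, led by Fcgrt, the neonatal Fc receptor that also pairs with B2m (mean FPKM 6.22), and Cd1d1, which presents lipids (3.26), with 0 called. MHC class II genes reached FPKM 1 at 3 of 8 loci, H2-DMa (mean FPKM 3.94) and H2-Ab1 (1.22) being the most abundant, with 0 called.

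Cell type markers bear on these values, since in whole cord fewer cells of a type and less RNA per cell cannot be told apart. Microglia markers reached FPKM 1 at 19 of 19 loci, with a summed FPKM of 114, 123 and 131 in control and 137, 138 and 134 in the groups labelled SMA. P2ry12, a purine receptor of microglia, had a mean FPKM of 14.3 among them. At P2, 16 of 19 microglia loci had higher values in SMA (median log2 ratio 0.32), and 0 were called. At P6 and P10 it was 11 of 19 at both ages, with medians of 0.03 and 0.02 beside 0.07 and 0.04 for all loci tested. Lymphocyte markers reached FPKM 1 at 0 of 15 loci, with a summed FPKM of 0.803 to 0.969. The most abundant were Trbc2 and Cd79b, and Cd3e, a defining T cell gene, was listed at 0 in 4 of 6 groups. Monocyte and border macrophage markers, led by Lyz2 and Pf4, had a summed FPKM of 26.5, 26.6 and 19.0 in control and 24.3, 30.6 and 17.4 in the groups labelled SMA, with 7 of 12 loci reaching FPKM 1. Their lower values at P10 in both genotypes ran beside that of H2-K1, and their part in it was not tested.

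Like Ifi27, the endothelial, oligodendrocyte and astrocyte lists had higher summed levels in the group labelled SMA than in control at P2 and lower ones at P10, but at P6 endothelial markers did not share its higher value in SMA. Endothelial markers, led by Cldn5 and Slco1c1, reached FPKM 1 at 14 of 15 loci, with a summed FPKM of 85.7, 111 and 138 in control and 114, 108 and 103 in the groups labelled SMA. They had higher values in SMA at 12 of 13 loci at P2 (median log2 ratio 0.28) and at 0 of 14 at P10 (median -0.49), and 0 were called. At P6 it was 6 of 14 (median -0.06). Mature oligodendrocyte markers reached FPKM 1 at 15 of 15 loci, with a summed FPKM of 318, 2061 and 8617 in control and 3932, 2312 and 4825 in the groups labelled SMA. Of these 15, 7 were called higher in SMA at P2, where 0.126% of all loci tested were called. In control 14 were called higher at P10 than at P2 (0.631% of all loci), and 4 were called lower for the difference of changes (0.0574%). Over protein-coding loci alone, 6 loci in all were called at P2, so the 7 calls do not all hold there. Astrocyte markers, led by Aldoc and Gfap, reached FPKM 1 at 10 of 10 loci and summed to 454, 695 and 1101 in control and 801, 782 and 855 in the groups labelled SMA. Relative to control at P10, Ifi27 was at 78.9%, 99.3% and 70.9% in the groups labelled SMA at P2, P6 and P10, with its highest SMA value at P6. Endothelial markers were at 82.6%, 78.2% and 75.0%, and oligodendrocyte markers at 45.6%, 26.8% and 56.0%, with their lowest SMA value at P6. The part of these cell types in the values of Ifi27 was not tested.

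**Figure D4:**
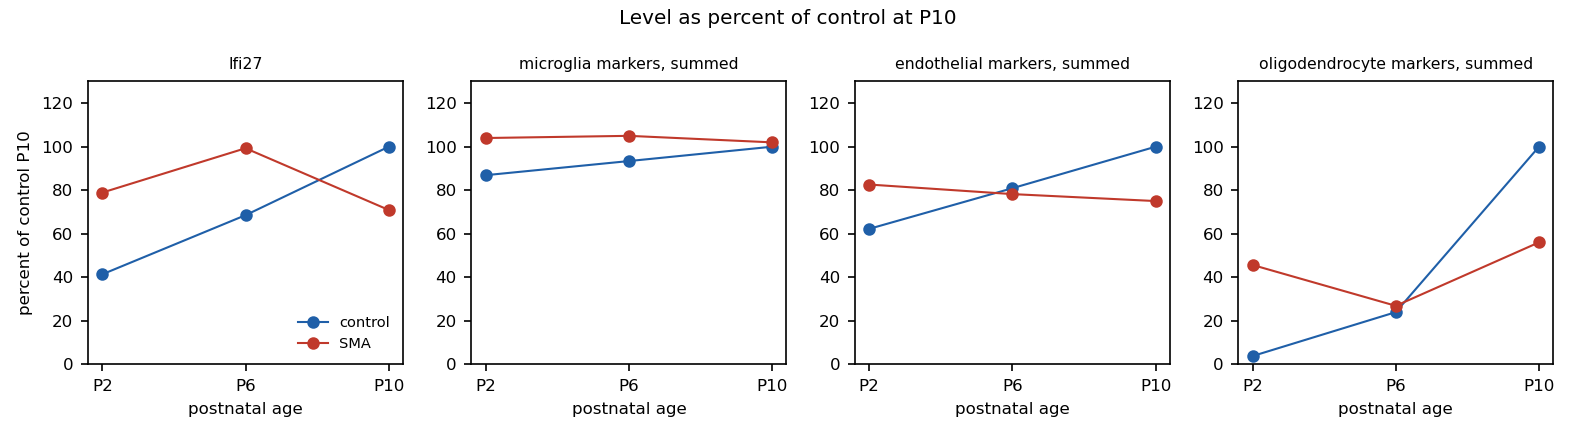
Level in percent of control at P10 (vertical axis) by postnatal age for Ifi27 and the summed microglia, endothelial and mature oligodendrocyte markers, in control (blue) and SMA (red); each point is 1 group value and lines join the ages of a genotype. In each of the 4 panels the group labelled SMA lies above control at P2; at P10 it lies below control except for microglia markers (102%). At P6 Ifi27 is higher in SMA (99.3% against 68.5%) and endothelial markers are not (78.2% against 80.9%). Ifi27 goes from 41.3% to 100% in control and from 78.9% to 70.9% in SMA.

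Among themselves, the 6 members that reached FPKM 1 did not share 1 pattern over the 6 groups. Pearson correlations of log2(FPKM + 1) between pairs ran from -0.79 (B2m and H2-D1) to 0.72 (Ifi27 and Irf7), as a description over 6 group values that share their scaling. H2-D1 and Ifit2 had 0.67, and the heavy chains H2-D1 and H2-K1 had 0.50. The mean of the 6 standardised members was highest in SMA at P6 (0.80) and between -0.30 and -0.03 in the other groups. Of 6770 abundant protein-coding genes, those most like this mean were Uggt1 (r = 0.977), Sharpin (0.970), Med27 (0.970), Hip1 (0.969) and Mtcl1 (0.960). The choice fixes that they peak with this mean in SMA at P6, so nothing is read from their likeness. Relative to the mean of the 6 groups, the median log2 FPKM of abundant protein-coding genes was 0.0432 in SMA at P6. It was 0.033 in the group labelled SMA at P2 and -0.0678 in control at P6.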

How the data were processed

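RNA from whole spinal cord was sequenced from 18 libraries in 6 groups of 3. Per the submitters' processing notes, the authors used FastQC, Bowtie2 2.2.4, TopHat2 2.1.1, Picard, Cufflinks 2.2.1 and Cuffdiff on GRCm38; the annotation and normalization settings are not given in the sources used here. Per the file headers, the authors deposited FPKM with interval bounds per group and locus, and expected counts (estimated fragments) with a model variance. These counts are not whole and have near equal totals, so no model for raw read counts was fitted to them; their log ratios served as an alternative. P-values of the z test rest on the spread of the authors' model, and those of limma on the spread between group values. Neither was computed from values of single cords.

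The z test read the distance from FPKM to the upper bound as 1.96 standard errors. That distance had a median of 72.5% to 74.8% of FPKM at FPKM 1 or more and 48.7% to 51.1% at 20 or more. The z values had a robust standard deviation of 0.262 to 0.47 over all loci, below that of a standard normal, so the test calls few loci. limma 3.58.1 (R 4.3.3) was fitted with a trend on the 6 values of log2(FPKM + 1), with age and genotype, leaving 2 residual degrees of freedom. Fits without the groups of an age left 1. Benjamini-Hochberg adjustment ran over all loci tested in a comparison.

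The members, the 15 lists of genes, the motifs and the tests were chosen with earlier results of these data known. The rule for named genes took the 9 members, the 2 most abundant of each list or its called members (called oligodendrocyte markers are counted, not named), the 5 genes most like the members, and Smn1, Mbp and Mag. Among the genes so named, 1 is not reported here, though counts include it; further genes in the text, such as Ifnb1, Cd3e and Isg15, were picked with their values known. Promoter sequences are from RefSeq on GRCm38.p6. Python 3.11.15 with pandas 2.3.3 and scipy 1.17.1 did the rest. Values of single libraries were not analysed here.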

Additional observations from a re-analysis of the deposited data

How the results depend on the processing

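Of 259 member values under other settings, 256 kept their sign and 0 gained or lost a call, and no member was called under any setting run, the lowest adjusted p being 0.183 (limma on estimated counts, H2-K1 by age). Sizes moved more: with estimated counts, the SMA to control log2 ratio at P6 went from 0.54 to 0.23 for Ifi27, 0.31 to 0.11 for H2-D1, 0.26 to 0.13 for H2-K1 and 0.24 to 0.11 for Ifit2. H2-D1 went from 0.37 to 0.17 at P10, from 0.50 to 0.24 for the difference of changes and from 0.17 to 0.07 across ages, and Ifi27 from 0.26 to 0.11 across ages. Between P10 and P2 in SMA, Ifi27 went from -0.15 to -0.28 and Ifit2 from 0.32 to 0.16. With a pseudocount of 5, Ifi27 went from 0.26 to 0.14 across ages and from 0.45 to 0.25 by age, and H2-K1 from -0.46 to -0.27 by age. The 3 that changed sign were close to 0 at the start: H2-D1 between P10 and P2 in SMA went from 0.10 to -0.12 and Ifit2 by age from 0.02 to -0.05 with estimated counts, and Irf7 across ages from -0.02 to 0.12 without the P10 groups. The cause was not tested.

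Counts of called loci over the whole table moved more. With estimated counts and their variance, they went from 9 to 0 at P6, from 8 to 0 at P10, from 126 to 216 in control and from 12 to 2 in SMA between P10 and P2, and from 12 to 23 for the difference of these changes. Over protein-coding loci alone, the number went from 24 to 6 at P2, and to 0 at P6, at P10 and for SMA between P10 and P2. Calling by intervals that do not overlap gave 44 at P2, 23 at P6, 16 at P10, 272 in control and 22 in SMA. A minimum FPKM of 5 gave 20 for the difference of changes. Across ages, limma called 1 locus by genotype, and 0 with a pseudocount of 5, FPKM above 0, a minimum FPKM of 5, centred groups, estimated counts, no trend or without the P10 groups, 5 without the P2 groups and 8 without the P6 groups. By age it called 3 loci, and 5 with a pseudocount of 0.1, 1 with a minimum FPKM of 5, 0 with estimated counts and 1 without the P6 groups. The causes were not tested.

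No paired analysis was possible because the columns carry no replicate numbers and the libraries were already combined, so neither a replicate block nor leaving out a replicate was run. Depth limits Ifit1, Ifit3, Bst2 and Irf7 most, at 1.5 to 16.2 estimated fragments in a group.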
